A study of Arabidopsis thaliana with 8 samples.

Results

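The peptide and receptor genes of a single signalling pathway were followed through the buds of wild-type Arabidopsis and of 3 histone demethylase mutants. They are 7 genes for secreted peptides, EPF1, EPF2, EPFL1, EPFL2, EPFL4, EPFL6 and EPFL9, and 3 genes for their receptors, ERECTA, ERL1 and ERL2. The genes were taken by gene ID from a list of names, and make up 10 of the 25738 genes that had a value above 0 in any library. No measured value entered this rule, but the list was chosen with earlier results of these data known.

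EPF and EPFL genes encode small cysteine-rich peptides that are secreted and bound by receptor kinases of the ERECTA family on nearby cells. The receptors act with SERK co-receptors and signal through a MAP kinase cascade. In the epidermis the pathway sets the number and spacing of stomata, and in the inflorescence it is known for the growth of stems, pedicels and floral organs.

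Polyadenylated RNA was sequenced from buds of floral stages 9 to 13 of the primary inflorescence, from plants kept in soil under long days. There were 4 genotypes with 2 libraries each, and nothing in the sources says that the 2 libraries of a genotype came from separate plants, so that p-values measure only the spread between these samples. The question was how the loss of a demethylase of H3K27me3, a histone mark of silenced genes, alters transcript levels in the bud. The total of expected counts per library, which are estimated read numbers per gene, ranged from 11373306 to 12048319.

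Col-0 was the wild-type accession, and all mutants were T-DNA insertion lines in that background. The *elf6* and *jmj13* plants carried insertions in ELF6 and JMJ13, and the *ref6* plants an insertion in REF6 that, according to the study, leaves the catalytic domain in place. Alleles are not in the labels, and the methods and the deposited data name different ones for *elf6*, which leaves the sequenced allele unknown. ELF6 itself had 18 and 28 expected counts in *elf6*, below its 68 and 88 in the wild type. For JMJ13 (45 and 45 counts in its own mutant, 22 and 51 in the wild type) and REF6 (130 and 119, and 90 and 103) the counts do not check the label. All 9 floral organ markers were above 0 in every library. Because whole buds were used, fewer cells of a type and less RNA per cell cannot be told apart.

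In 2 libraries, Col-0 replicate 1 and *ref6* replicate 1, the 50 most abundant genes took 29.3% and 30.5% of the counts, against 18.4% to 21.4% in the others. The scaling factors of the TMM method were 0.739 and 0.742 in these libraries and 1.012 to 1.218 elsewhere. Every comparison with Col-0 uses the first of them, and those with *ref6* use both. The difference between replicates, as the SD over genes of the log2 ratio of replicate 1 to replicate 2, was 0.787 for Col-0 and 0.784 for *ref6* but 0.49 for *elf6* and 0.48 for *jmj13*.

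On the TPM scale, which corrects for gene length and gives each library the same total, ERECTA was the most abundant of the 10 transcripts when averaged over the 8 libraries. Its mean was 67.6 TPM, and the libraries ranged from 33.5 to 98.5 TPM. ERECTA encodes the receptor that gave the family its name and is known for compact inflorescences when lost. EPFL9, also called STOMAGEN, followed with a mean of 49.1 TPM and a range from 39.9 to 60.9 TPM. It encodes the peptide that promotes stomata by competing with the inhibitory peptides, and its range overlapped that of ERECTA.

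EPFL1 came next with a mean of 26.6 TPM and a range of 14.7 to 36.1 TPM, with no library as high as the lowest for EPFL9. EPFL6 (also CHALLAH), known with EPFL4 for elongation of the inflorescence, had a mean of 17.3 TPM and EPFL4 had 12.6 TPM. The remaining transcripts were low. EPF2, which restrains entry into the stomatal lineage, had a mean of 8.03 TPM, ERL2 had 7.45 TPM, EPFL2 had 7.29 TPM and EPF1, which acts later in the stomatal lineage, had 5.39 TPM. ERL1 was the lowest, with a mean of 3.25 TPM and a range of 1.61 to 5.32 TPM. Apart from the step between EPFL9 and EPFL1, the ranges of neighbours in this order overlapped.

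**Figure D1:**
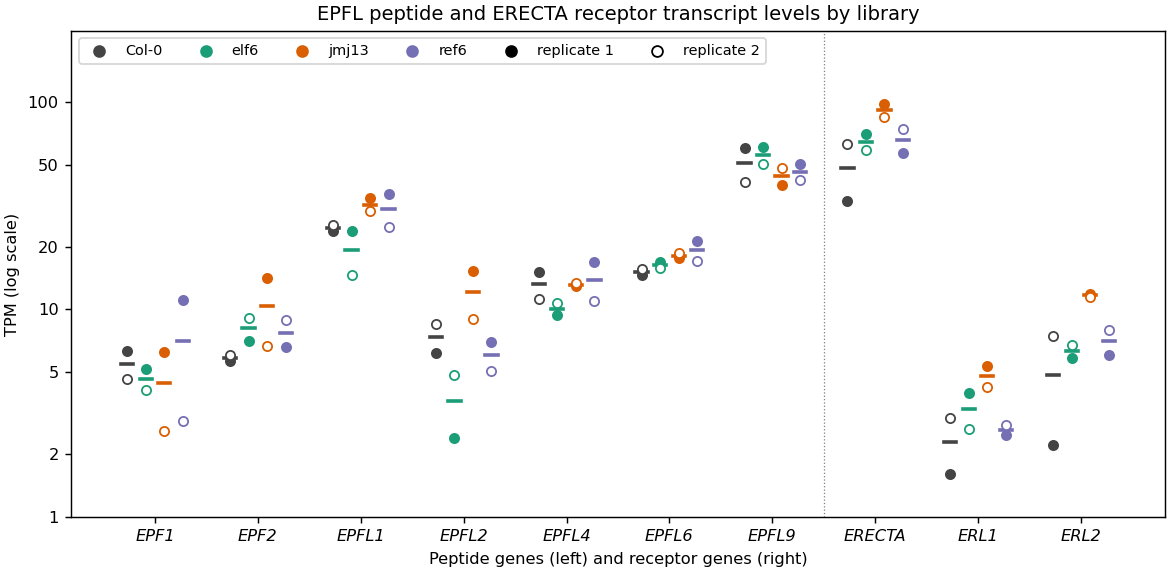
Transcript levels of the 7 peptide genes (left) and 3 receptor genes (right) in TPM on a log scale. Filled points are replicate 1, open points replicate 2 and bars the mean of the 2 libraries of a genotype. The EPFL2 points of *elf6*, at 2.39 and 4.82 TPM, lie below those of the other genotypes, and the ERECTA points of *jmj13*, at 98.5 and 84.9 TPM, lie above them.

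Among the receptors, ERECTA made up 84.4% to 89.8% of the summed receptor TPM in each library. ERL1 and ERL2, which share tasks with ERECTA and are each other's closest relatives, are alike over 581 bases at 71.8% identity and over a stretch of 68 bases at 89.7%, found by aligning transcripts to the genome with blastn. ERECTA and ERL1 shared 72.0% over 368 bases. Among the peptides, EPFL4 matched its relative EPFL5 at 82.6% over 207 bases and EPF2 matched AT1G71866 at 69.9% over 146 bases, whereas EPF1, EPFL1, EPFL2, EPFL6 and EPFL9 had no match elsewhere at an expect value of 1e-05. Expected counts of genes with a close relative depend on how shared reads were split. ERL1 overlaps AT5G62240 on the opposite strand, and whether strand was used in counting is not given in the sources used here.

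The sequence before the start of each gene was read from TAIR10.1, whereas the files were made with TAIR10 and give no coordinates, so that the gene starts used by the authors may differ. All 10 genes lie on nuclear chromosomes. The peptide genes have 2 or 3 exons and each receptor gene has 27. Windows of 300 bases, from 250 before to 50 after the start, were searched on both strands for the words CTCTGCTC, CTCTGCTT, CTCTGTTC and CTCTGTTT, known to be bound by REF6, for CGTGTG and CGTGCG, known for BZR factors that partner ELF6 and REF6, and for AAACCCTA, the telobox. No word contains another. None of the 4 REF6 words was in a member's window, and 7.875% of 27443 promoters of the same length held at least 1 of them. CGTGTG was found in ERECTA, ERL1 and EPF2 and in 6.515% of all promoters, AAACCCTA was found in EPFL6 and in 6.22%, and CGTGCG was in no member and in 1.957%. Such a match is a description of letters. The 250 bases before EPFL2 and before the 3 receptor genes are given because EPFL2 and ERL2 were the members with an unadjusted p under 0.05 in a comparison and the receptor genes were highest together in *jmj13* in TPM, each 5′ to 3′ on the strand of its gene, with CGTGTG or its reverse complement in capitals. EPFL2 lies on the plus strand at chr4:17780729-17781813, and its printed bases are chr4:17780479-17780728. ERECTA lies on the minus strand at chr2:11208080-11214662, with printed bases chr2:11214663-11214912. ERL1 lies on the plus strand at chr5:24996129-25002439, with chr5:24995879-24996128, and ERL2 on the minus strand at chr5:2227439-2233587, with chr5:2233588-2233837.
EPFL2: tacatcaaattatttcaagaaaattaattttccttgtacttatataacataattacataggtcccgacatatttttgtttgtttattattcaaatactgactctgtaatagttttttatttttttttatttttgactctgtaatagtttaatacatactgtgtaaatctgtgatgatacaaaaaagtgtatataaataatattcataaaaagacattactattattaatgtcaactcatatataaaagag
ERECTA: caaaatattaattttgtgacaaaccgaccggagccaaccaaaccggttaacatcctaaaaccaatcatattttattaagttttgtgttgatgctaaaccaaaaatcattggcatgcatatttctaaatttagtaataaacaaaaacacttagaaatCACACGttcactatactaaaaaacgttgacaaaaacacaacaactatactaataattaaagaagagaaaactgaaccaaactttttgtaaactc
ERL1: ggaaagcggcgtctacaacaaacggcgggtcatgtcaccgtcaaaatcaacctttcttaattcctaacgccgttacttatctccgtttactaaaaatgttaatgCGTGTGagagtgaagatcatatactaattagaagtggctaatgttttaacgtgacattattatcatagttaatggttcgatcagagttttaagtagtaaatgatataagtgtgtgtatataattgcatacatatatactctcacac
ERL2: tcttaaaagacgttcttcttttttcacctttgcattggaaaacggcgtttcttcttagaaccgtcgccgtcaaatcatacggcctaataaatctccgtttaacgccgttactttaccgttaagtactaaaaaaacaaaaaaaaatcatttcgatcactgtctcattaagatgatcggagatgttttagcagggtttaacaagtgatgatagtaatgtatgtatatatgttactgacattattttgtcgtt

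No member passed the test in any comparison. A gene was called when edgeR's quasi-likelihood test gave a Benjamini-Hochberg adjusted p under 0.05 over 19939 tested genes and the difference was at least 2-fold, and all 10 members were among the tested genes. In *elf6* against Col-0, 0 of 10 members were called, beside 0.12% of all tested genes. In *jmj13* against Col-0 0 members and 0.0% of all genes were called, in *ref6* against Col-0 0 members and 0.00502%, and in *elf6* against *jmj13* 0 members and 0.772%. At an unadjusted p under 0.05 the members numbered 1, 1, 0 and 2 in this order, beside 12.4%, 11.2%, 4.67% and 8.78% of all genes. DESeq2's test and limma on FPKM also called no member. When all 4 genotypes were tested together without a fold criterion, 0.567% of all genes but no member passed, and EPFL2 had the lowest adjusted p of the members in edgeR's test, 0.41. The 3 comparisons with Col-0 share its libraries and are not independent of each other. For a single gene, an exact permutation test of 2 libraries against 2 cannot give a two-sided p below 0.333.

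EPFL2 (AT4G37810) was lowest in *elf6*, and in TPM it was highest in *jmj13*. It encodes a peptide known for the growth of leaf teeth and the spacing of ovules. In replicates 1 and 2, it had 40 and 49 expected counts in Col-0, 14 and 28 in *elf6*, 88 and 51 in *jmj13*, with 44 and 30 in *ref6*. Per length, these were 6.16 and 8.54 TPM in Col-0, 2.39 and 4.82 TPM in *elf6*, 15.4 and 9.02 TPM in *jmj13*, and 6.99 and 5.02 TPM in *ref6*. Both *elf6* libraries were below each of the other 6, and both *jmj13* libraries were above the other 6 in TPM. In CPM after TMM scaling, *jmj13* at 6.32 and 3.87 overlapped Col-0 at 4.57 and 4.23 and *ref6* at 4.97 and 2.33, while *elf6* at 1.11 and 2.24 stayed lowest. The counts are small. The exact Poisson 95% interval, which covers counting error only, was 7.65 to 23.5 counts in *elf6* replicate 1 and 18.6 to 40.5 in replicate 2, against 28.6 to 54.5 and 36.3 to 64.8 in Col-0.

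The fitted log2 difference of EPFL2 between *elf6* and Col-0 was −1.39 (SE 0.505, 95% interval −2.51 to −0.27), with an edgeR adjusted p of 0.312, which did not pass. Between *elf6* and *jmj13* it was −1.60 (SE 0.497, 95% interval −2.70 to −0.50), with an edgeR adjusted p of 0.258. Without both libraries that stand apart, a choice made after seeing the data, the latter was −1.58 with an edgeR adjusted p of 0.0466 and was called, in a fit that called 3.65% of all tested genes against 0.772% with all libraries. Its adjusted p over all alternatives ranged from 0.0466 to 1.0, and the difference was between −2.19 and −1.18 throughout. Against Col-0, EPFL2 differed by 0.21 in *jmj13* (SE 0.468) and by −0.29 in *ref6* (SE 0.483) on the log2 scale, both less than their SE. EPFL2 is on the study's list of predicted ELF6 targets, which was drawn up in part from low values in these *elf6* libraries, so that its level in *elf6* is not independent evidence.

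EPFL2 was also compared with the other peptide genes inside each library, which does not depend on scaling between libraries. Its share of the summed TPM of the 7 peptide genes was 4.68% and 7.54% in Col-0, 1.90% and 4.38% in *elf6*, 10.9% and 7.03% in *jmj13*, with 4.68% and 4.49% in *ref6*. The *elf6* shares were the lowest, although the second *elf6* library was close to both *ref6* libraries, and the *jmj13* and Col-0 shares overlapped. Relative to EPFL6, a peptide gene with even counts of 167 to 249, EPFL2 stood at 41.8% and 54.3% in Col-0, 14.1% and 30.5% in *elf6*, 86.6% and 48.4% in *jmj13*, with 32.7% and 29.2% in *ref6*. On this ratio *elf6* overlapped *ref6*, as *elf6* replicate 2 was above *ref6* replicate 2.

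**Figure D2:**
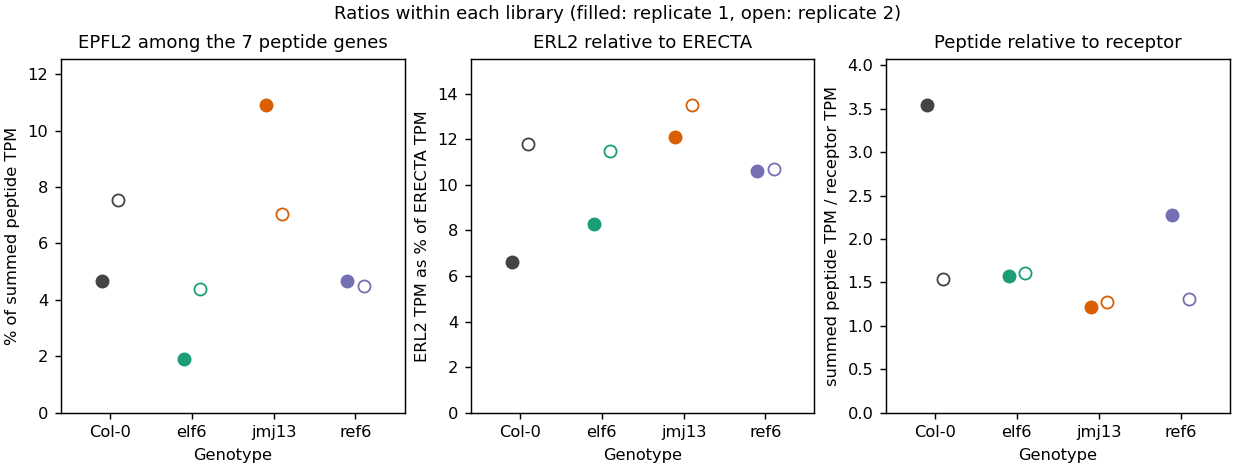
Ratios within each of the 8 libraries, with filled points for replicate 1 and open points for replicate 2. The panels show EPFL2 as a percentage of the summed TPM of the 7 peptide genes, ERL2 TPM as a percentage of ERECTA TPM, and summed peptide TPM divided by summed receptor TPM. EPFL2 is at 1.90% and 4.38% in *elf6* against 10.9% and 7.03% in *jmj13*, and the Col-0 replicates are apart in all 3 panels.

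The sum of the touch and wound genes also stood apart in *elf6*. The 8 touch and wound genes, chosen as signs of handling, were all above 0 in *elf6* and summed to 1586 and 1735 TPM there, against 171 to 295 TPM in the Col-0 and *jmj13* libraries and 74.2 and 287 TPM in *ref6*. The 9 pollen markers, all above 0 in *elf6*, summed to 1507 and 771 TPM in *elf6*, 2270 and 2953 TPM in Col-0, and 2478 and 1338 TPM in *jmj13*, with 1435 and 1329 TPM in *ref6*. The *elf6* pollen sums were below Col-0 but overlapped those of *jmj13* and *ref6*. After TMM scaling, 4 of the 7 tested pollen markers were below Col-0 without overlap in *elf6*, beside 21.0% of all tested genes. The other 3 overlapped and 0 were above. In *jmj13* 3 of the 7 were also below Col-0, beside 21.5% of all tested genes, and in *ref6* 3, beside 12.5%, with 0 above in each. The part of the touch, wound and pollen genes in the EPFL2 values was not tested.

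Besides EPFL2, the *elf6* libraries were below the Col-0 libraries for EPFL1 and EPFL4, and for no member were they above them, in CPM (counts scaled to the library total after TMM correction). These 3 of 10 members below without overlap compare with 21.0% of all tested genes, and 0 above with 23.7%. EPFL1, which is expressed around the shoot meristem and shares roles there with EPFL4 and EPFL6, had 174 and 165 counts in Col-0 and 157 and 96 in *elf6*. Its fitted log2 difference was −0.76 (SE 0.389, edgeR adjusted p = 0.458). EPFL4 had 126 and 83 counts in Col-0 and 71 and 80 in *elf6*, with a difference of −0.84 (SE 0.436, edgeR adjusted p = 0.470). All 3 genes were negative in this comparison in each alternative run, yet none of the differences was past the threshold. Without Col-0 replicate 1, one of the libraries that stand apart, they were −1.33 for EPFL2, −0.50 for EPFL1 and −0.25 for EPFL4, and without replicate 2 of *elf6* EPFL1 was at −0.46. EPFL6, at −0.30, and EPFL9, at −0.32, changed sign to 0.05 and 0.07 when counts were scaled by library size only. For EPFL9 the sign also depends on Col-0 replicate 1, which had 299 counts against 183 in replicate 2, and without it the difference was 0.33. EPF1, with 11 to 53 counts over the libraries, and EPF2, with 36 to 84, had differences of −0.67 (SE 0.772) and 0.07 (SE 0.419).

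Against *jmj13*, the *elf6* libraries were higher for EPFL9 and lower for EPFL1, EPFL2, EPFL4, ERECTA and ERL2 without overlap, which is 1 of 10 members above, beside 23.5% of all tested genes, and 5 of 10 below, beside 24.6%. EPFL9 had 275 and 226 counts in *elf6* and 176 and 210 in *jmj13*, and its log2 difference was 0.48 (SE 0.390, edgeR adjusted p = 0.915). EPFL1 differed by −0.59 (SE 0.387) and EPFL4 by −0.24 (SE 0.435). The ratio of EPFL9 to EPFL1 TPM was 2.56 and 3.44 in *elf6*, 1.16 and 1.62 in *jmj13*, 2.51 and 1.62 in Col-0, and 1.39 and 1.69 in *ref6*. The *elf6* ratios were above those of the other genotypes, with Col-0 replicate 1 close to the lower of them.

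In TPM, the 3 receptor genes had their highest levels in *jmj13*. ERECTA (AT2G26330) was at 33.5 and 63.0 TPM in Col-0, 70.4 and 58.7 TPM in *elf6*, 98.5 and 84.9 TPM in *jmj13*, and 57.1 and 74.7 TPM in *ref6*. ERL1 (AT5G62230) was at 1.61 and 3.00 TPM in Col-0, 3.96 and 2.64 TPM in *elf6*, 5.32 and 4.23 TPM in *jmj13*, and 2.47 and 2.77 TPM in *ref6*. ERL2 (AT5G07180) was at 2.21 and 7.41 TPM in Col-0, 5.84 and 6.74 TPM in *elf6*, 11.9 and 11.5 TPM in *jmj13*, and 6.04 and 7.996 TPM in *ref6*. Both *jmj13* libraries were above the other 6 in TPM for each receptor gene. The low values of Col-0 replicate 1 belong to a library in which a few genes took a large share of the counts, and TPM does not correct for that.

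After TMM scaling the gap was smaller. ERECTA was at 142 and 178 CPM in Col-0, 187 and 156 in *elf6*, 231 and 208 in *jmj13*, with 232 and 198 in *ref6*. ERL1 was at 7.09 and 8.80 CPM in Col-0, 10.9 and 7.27 in *elf6*, 13.0 and 10.8 in *jmj13*, with 10.4 and 7.61 in *ref6*. ERL2 was at 9.72 and 21.7 CPM in Col-0, 16.0 and 18.5 in *elf6*, 29.0 and 29.1 in *jmj13*, with at most 25.4 in *ref6*. On this scale *jmj13* overlapped *ref6* for ERECTA and *elf6* for ERL1, and of the receptor genes ERL2 alone had both *jmj13* libraries above the other 6. In *jmj13* all 3 receptors were above Col-0 without overlap and no peptide gene was on either side, so that 3 of 10 members above compare with 24.7% of all tested genes, and 0 below with 21.5%. Without TMM scaling, in TPM, the members free of overlap on either side numbered 7 of 10, beside 60.9% of all tested genes, and in the other comparisons 5 for *elf6* against Col-0 (50.1%), 2 for *ref6* against Col-0 (16.2%) and 8 for *elf6* against *jmj13* (53.0%). The fitted log2 differences were 0.46 for ERECTA (SE 0.264, edgeR adjusted p = 0.510), 0.58 for ERL1 (SE 0.306, edgeR adjusted p = 0.487) and 0.88 for ERL2 (SE 0.336, edgeR adjusted p = 0.421), none past the threshold. The median over the 3 receptors was 0.58 and over the 7 peptides −0.29, beside 0.04 over all tested genes. Under each alternative run all 3 receptor values stayed above 0. With library size only, the median of all genes was itself 0.48, that of the receptors 1.00 and that of the peptides 0.18.

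Among the peptides in *jmj13*, EPFL9 had 176 and 210 counts against 299 and 183 in Col-0, which overlap. Its log2 difference was −0.80 (SE 0.391, 95% interval −1.67 to 0.06) with an edgeR adjusted p of 0.468, and it was −0.15 without Col-0 replicate 1. EPF1 differed by −0.90 (SE 0.777), EPFL4 by −0.60 (SE 0.431), or −0.02 without Col-0 replicate 1, and EPF2 by 0.28 (SE 0.414), all with overlapping libraries. EPFL1, at −0.17, and EPFL6, at −0.29, turned to 0.30 and 0.18 with library size only.

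The ERL2 difference in *jmj13* rested on the Col-0 libraries. Without Col-0 replicate 2 the difference was 1.56 with an edgeR adjusted p of 0.0436 and was called, in a fit that called 1.13% of all tested genes, and without Col-0 replicate 1 it was 0.41 with an edgeR adjusted p of 0.979. The adjusted p over all alternatives ranged from 0.0436 to 0.979. Between *elf6* and *jmj13*, whose replicates were closer, ERL2 had 203 and 232 counts against 404 and 384, a log2 difference of −0.75 (SE 0.333, 95% interval −1.49 to −0.01) with an edgeR adjusted p of 0.555. When only these 4 libraries entered the fit, the same difference had an edgeR adjusted p of 0.0281, still under the 2-fold criterion, and over all alternatives the adjusted p ranged from 0.0281 to 1.0. ERECTA differed by −0.36 (SE 0.264) and ERL1 by −0.39 (SE 0.301) in that comparison. Relative to ERECTA in the same library, ERL2 TPM was 6.61% and 11.8% in Col-0, 8.30% and 11.5% in *elf6*, 12.1% and 13.5% in *jmj13*, with 10.6% and 10.7% in *ref6*. These percentages were highest in *jmj13*, by a margin smaller than the spread in Col-0.

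**Figure D3:**
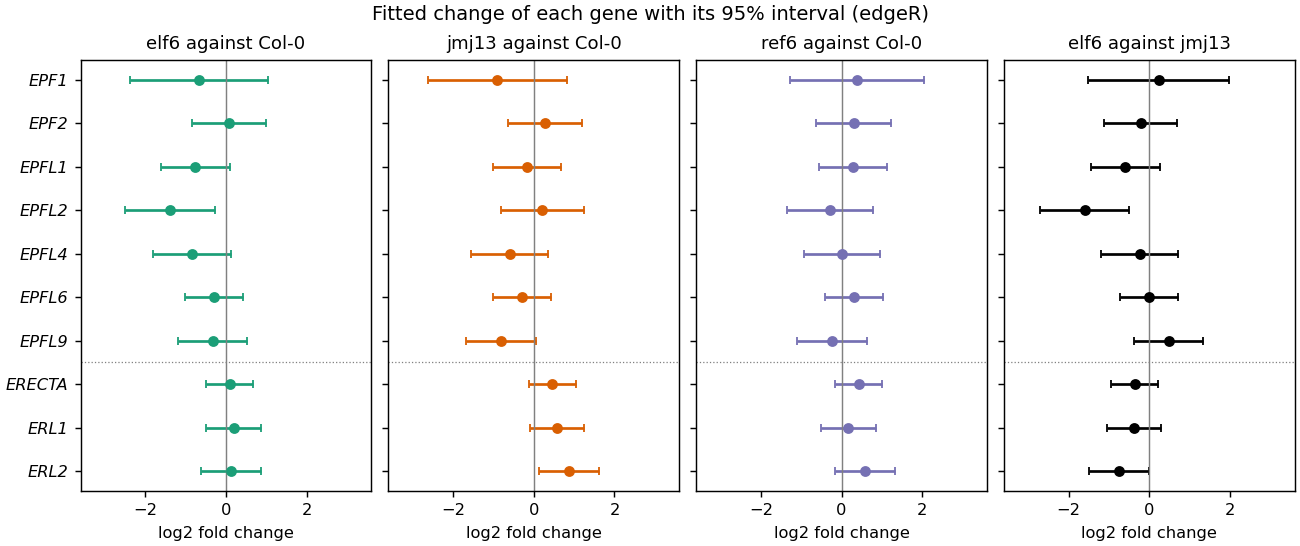
Fitted log2 difference of each member in the 4 comparisons, with peptide genes above the dotted line and receptor genes below it. Points are edgeR estimates and bars their 95% intervals, unadjusted for the number of genes. The interval lies wholly below 0 for EPFL2 in *elf6* against Col-0 and against *jmj13* and for ERL2 in *elf6* against *jmj13*, and wholly above 0 for ERL2 in *jmj13* against Col-0.

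Summed over the family members, receptor TPM was 37.3 and 73.4 in Col-0, 80.2 and 68.1 in *elf6*, 116 and 101 in *jmj13*, with 65.6 and 85.4 in *ref6*. Peptide TPM varied less, from 110 to 149 over the 8 libraries. Peptide TPM per receptor TPM was 3.54 and 1.54 in Col-0, 1.57 and 1.61 in *elf6*, 1.22 and 1.27 in *jmj13*, with 2.28 and 1.31 in *ref6*. The *jmj13* ratios were the lowest, with *ref6* replicate 2 just above them, and the highest ratios came from the 2 libraries that stand apart.

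Marker sums are given beside the receptor values. The 7 green tissue genes summed to 61627 and 62978 TPM in *jmj13*, 71533 and 89714 TPM in Col-0, and 65087 to 99675 TPM in the other genotypes. The 9 floral organ markers summed to 486 and 462 TPM in *jmj13*, 322 and 475 TPM in Col-0, and 263 to 513 TPM in the other genotypes. Of these, the ovule gene STK had 219 and 132 counts in *jmj13* against 56.0 and 82.0 in Col-0. The integument gene INO had 72 and 63 counts in *jmj13* against 16 and 36. The petal and stamen gene PI went the other way, with 732 and 558 against 848 and 787. After TMM scaling, 3 of the 9 floral markers were above Col-0 without overlap in *jmj13*, beside 24.7% of all tested genes. Another 3 were below, beside 21.5%, and 3 overlapped. On that scale all 7 green tissue genes were below Col-0 without overlap in *jmj13*, as were 5 of the 7 in *elf6*. The part of the floral and green tissue genes in the receptor values was not tested.

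In *ref6*, ERECTA and ERL2 were above Col-0 without overlap in scaled counts, 2 of 10 members above beside 13.6% of all tested genes, with 0 below beside 12.5%. ERECTA had 2053 and 2551 counts in *ref6* and 1241 and 2066 in Col-0, with a log2 difference of 0.43 (SE 0.264, edgeR adjusted p = 0.999), and ERL2 had 225 and 283 counts against 85 and 252, with 0.58 (SE 0.337, edgeR adjusted p = 0.999). On the TPM scale neither receptor was free of overlap. Without both libraries that stand apart the differences were 0.14 for ERECTA and 0.01 for ERL2. The peptide genes lay between −0.29 for EPFL2 and 0.39 for EPF1. EPF1 had 53 counts in *ref6* replicate 1 and 13 in replicate 2, and its difference was −1.36 without replicate 1 of *ref6*.

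Of 32 other genes of the pathway, chosen by their roles, 29 were tested and 1 was called in the 4 comparisons. The call was in *elf6* against *jmj13*, where 0.772% of all tested genes were called. AT5G65920, annotated as an ARM repeat protein and listed here with genes of receptor turnover, had 176 and 148 counts in *elf6*, 58 and 57 in *jmj13*, 38 and 50 in Col-0, and 50 and 58 in *ref6*. It rose in *elf6* relative to *jmj13*, with a log2 difference of 1.60 (SE 0.285, edgeR adjusted p = 0.0349), and both *elf6* libraries were above the other 6. Its difference from Col-0 was 1.57 (SE 0.289, edgeR adjusted p = 0.0746). The call against *jmj13* was lost when either *elf6* or either *jmj13* library was left out, with library size only and with limma on FPKM.

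Among relatives of the peptides, EPFL5 had 20 to 72 counts and AT1G71866 had 35 to 77. AT3G13898 had 0 to 4 counts, and AT1G80133 was at 0 in all 8 libraries, where 3 counts is the limit that a count of 0 allows. Of the co-receptors, TOO MANY MOUTHS, a receptor-like protein that modulates ERECTA receptors in the stomatal lineage, had 165 and 185 counts in *elf6*, 283 and 312 in Col-0, 242 and 254 in *jmj13*, with 453 and 356 in *ref6*. Its log2 difference between *elf6* and Col-0 was −1.09 (SE 0.308, edgeR adjusted p = 0.206), with *elf6* below Col-0 without overlap. In scaled counts *jmj13* was also below Col-0 without overlap, at −0.69 (SE 0.304, edgeR adjusted p = 0.439), and *elf6* differed from *jmj13* by −0.4 (SE 0.306). SERK1 differed from Col-0 by −0.03 in *elf6* and 0.20 in *jmj13*, and BAK1, a co-receptor of many receptor kinases, by 0.60 (edgeR adjusted p = 0.344) and 0.21. SERK4, another co-receptor kinase, had 191 and 207 counts in *elf6*, 55.1 and 78.5 in Col-0, 122 and 125 in *jmj13*, with 68.0 and 131 in *ref6*. Both *elf6* libraries were above the other 6, and the log2 difference from Col-0 was 1.27 (SE 0.264, edgeR adjusted p = 0.0978), not past the threshold. It was called in 6 of 19 alternatives, among them DESeq2's test and the replicate block, with adjusted p from 0.0238 to 0.674.

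In the kinase cascade below the receptors, MPK3 differed most. It had 2033 and 1811 counts in *elf6*, 271 and 431 in *jmj13*, 849 and 261 in Col-0, and 203 and 476 in *ref6*. The *elf6* libraries were above all others, as they were for the sum of the touch and wound genes, and the difference from *jmj13* was 2.55 (SE 0.572, edgeR adjusted p = 0.0825). A link of MPK3 to those genes was not tested. The kinase MPK6, which shares tasks with MPK3, had 275 to 498 counts and differed from Col-0 by −0.01 in *elf6* and 0.02 in *jmj13*. YDA, the MAP kinase kinase kinase of the cascade, differed by 0.07 in *elf6*, 0.30 in *jmj13* and 0.67 in *ref6*, the last with an edgeR adjusted p of 0.999. The MAP kinase kinases MKK4 (1.06, edgeR adjusted p = 0.353) and MKK9 (1.01, edgeR adjusted p = 0.629) were also higher in *elf6* than in *jmj13* without overlap. With MPK3 these were 3 of 9 tested cascade genes above, beside 23.5% of all tested genes, and 4 were below, beside 24.6%.

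The 9 genes of the stomatal lineage all had negative values in *elf6* against *jmj13*, and 8 were below without overlap, beside 24.6% of all tested genes below. None was called, and 1 had an unadjusted p under 0.05. SPCH, the factor for entry into the lineage, had 13 counts in each *elf6* library against 27 and 24 in *jmj13* (−0.86, SE 0.575), FAMA, the factor for guard cell identity, had 33 and 54 against 69 and 82 (−0.69, SE 0.377), and MUTE, which acts between them, had 17 and 11 against 8 and 25 (−0.14, SE 0.696). Over the 9 genes the median was −0.69, beside −0.03 over all genes. The summed TPM of these genes was 77.3 and 73.6 in *jmj13* and 33.5 to 55.7 in the other libraries, so that *jmj13* was highest in TPM, as for the receptors on that scale. ICE1, at 32.2 and 31.3 TPM, and SCRM2, at 20.8 and 16.6 TPM, gave most of the *jmj13* sum. All 9 genes were above Col-0 without overlap in *jmj13* in TPM, as were 10861 of 19939 tested genes. After TMM scaling 4 of the 9 were above, beside 24.7% of all tested genes, and 0 were below, beside 21.5%.

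**Figure D4:**
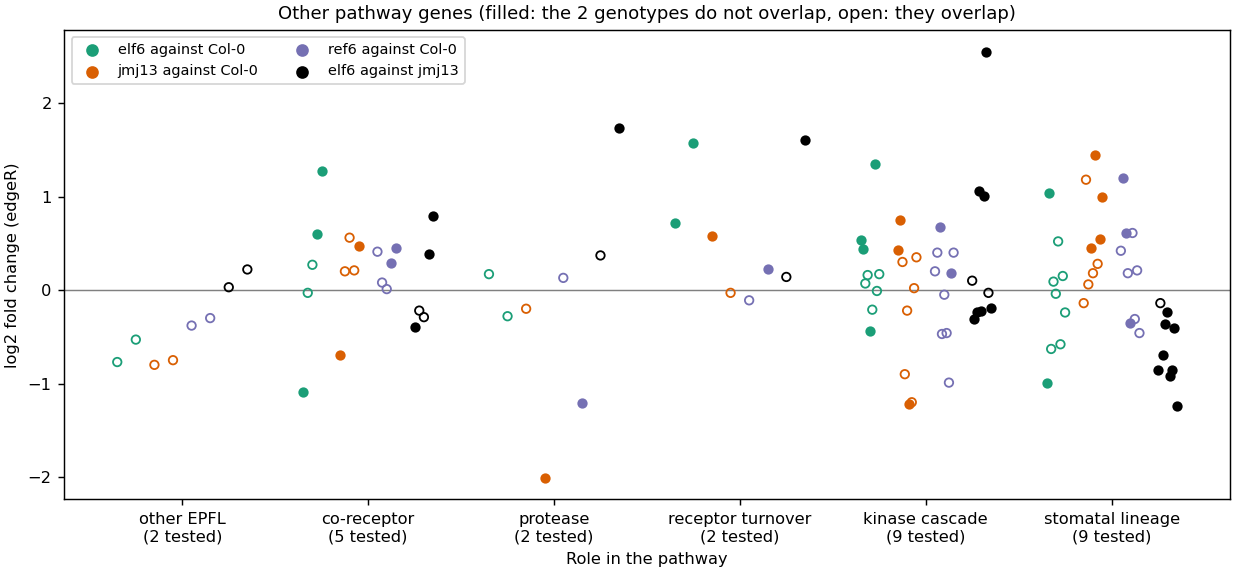
Fitted log2 differences (edgeR) of the 29 tested pathway genes other than the members, by role and comparison. Filled points mark genes for which the 2 libraries of one genotype lie on the same side of both libraries of the other in scaled counts, and open points those that overlap. The highest point is MPK3 in *elf6* against *jmj13* at 2.55, and in that comparison all 9 stomatal lineage genes lie below 0.

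The transcripts whose profile over the 8 libraries was most like that of a member were found by the root mean square difference of log2(CPM + 1), each gene centred on its own mean. For EPFL2 these were PAB3 at 0.208, PP2-A9 at 0.211 and AT1G61930 at 0.230. PAB3, which encodes a poly(A)-binding protein, was at no more than 27.7 CPM in *elf6* and at 43.0 and 39.6 in Col-0, 55.8 and 38.4 in *jmj13*, with 52.1 and 30.1 in *ref6*. The 2 *elf6* values were the lowest, as for EPFL2, but PAB3 was picked for its likeness to EPFL2 in these same libraries. For ERECTA they were ROS4 at 0.0572, AUF2 at 0.0636 and TBL2 at 0.0685. These 3 genes were at 0.457 to 11.9 CPM, far below ERECTA, and on this scale low genes vary little.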

How the data were processed

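RNA-seq libraries of stage 9 to 13 buds were analysed, 2 for each of Col-0, *elf6*, *jmj13* and *ref6*, grouped by the sample labels. For each gene and library the authors deposited 2 values, an expected count and an FPKM. Expected counts are estimated read numbers, not scaled, and FPKM is scaled by gene length and library total. The submitters' processing notes name Bowtie2, RSEM and TAIR10, with no versions. Genes not listed were taken as 0. Expected counts, of which 89.2% to 91.7% were whole within 1e-09, were rounded, filtered with filterByExpr, scaled by TMM and fitted over all 8 libraries with edgeR 4.0.16 (glmQLFit, glmQLFTest) in R 4.3.3. P-values were adjusted by Benjamini-Hochberg over 19939 genes, and calls needed an adjusted p under 0.05 and a 2-fold difference. NOISeq, which the study used, was not run here. TPM was computed from FPKM. Sums, ratios and intervals were computed in Python 3.11.15 with pandas 2.3.3 and scipy 1.17.1, transcripts were aligned with blastn 2.17.0, and plots were drawn with matplotlib 3.10.9. Sequences are from RefSeq, TAIR10.1. The scripts were tested on simulated data.

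Alternatives were DESeq2 1.42.0 (size factors or test), library size only, no filter, a mean of at least 50 reads, only the 4 libraries compared, a replicate block, no fold criterion, and limma 3.58.1 with trend on log2(FPKM + 1), on log2(FPKM + 0.1) or only where the mean FPKM was at least 1. Each library was left out in turn. The members and lists were chosen with earlier results of these data known. Named were all members, every called gene of the pathway lists, otherwise TOO MANY MOUTHS, SPCH, MUTE, FAMA, SERK1, BAK1, YDA, MPK3, MPK6, EPFL5, AT3G13898, AT1G71866 and AT1G80133, the 3 mutated genes, and the 3 genes most like EPFL2 and ERECTA. STK, INO, PI, SERK4, MKK4, MKK9, ICE1, SCRM2, A9 and AMS were named after their values were seen. Lists of tapetum and guard cell markers were also summed.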

Additional observations from a re-analysis of the deposited data

How the results depend on the processing

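Counts of 11 to 53 reads for EPF1 and 14 to 88 for EPFL2 limit what 2 libraries a genotype can show. No member was called under any alternative but ERL2 in *jmj13* without Col-0 replicate 2 and EPFL2 in *elf6* against *jmj13* without the 2 libraries that stand apart, where 1 member was called each, beside 1.13% and 3.65% of all tested genes. Leaving out libraries in turn gave 0 to 1 member for *jmj13* against Col-0. Of 748 values of single members under the alternatives, 54 changed sign, 692 kept sign and side, and 2 passed the threshold. Causes were not tested.

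With library size only, the median of all genes was 0.34 in *elf6*, 0.48 in *jmj13* and −0.16 in *elf6* against *jmj13*. Signs then changed to 0.05 for EPFL6 and 0.07 for EPFL9 in *elf6*, and to 0.3 for EPFL1 and 0.18 for EPFL6 in *jmj13*, where 7 members did not overlap, beside 60.0% of all tested genes. On TPM, chosen after seeing the data, 5 members did not overlap in *elf6*, beside 50.1% of all tested genes, and 7 in *jmj13*, beside 60.9%. Limma with pseudocounts of 1 and 0.1 FPKM and at a mean FPKM of at least 1 gave 0.05, 0.05 and 0.05 for EPFL6 and 0.1, 0.11 and 0.1 for EPFL9 in *elf6*, and 0.29, 0.3 and 0.29 for EPFL1 and 0.18, 0.19 and 0.18 for EPFL6 in *jmj13*. EPFL6 in *elf6* against *jmj13* was 0.0 with DESeq2's size factors and 0.0 with its test.

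Without both libraries that stand apart, chosen after seeing the data, values became 0.34 for EPFL9, −0.05 for ERECTA and −0.33 for ERL2 in *elf6*, 0.06 for EPFL1 in *jmj13*, −0.78 for EPF1, −0.14 for EPFL1, −0.14 for EPFL4 and −0.22 for ERL1 in *ref6*, and 0.02 for EPFL6 in *elf6* against *jmj13*. Leaving out 1 library in turn, values that changed sign ranged as follows. In *elf6* they were −0.16 to 0.33 for EPF2, −0.79 to 0.33 for EPFL9, −0.06 to 0.26 for ERECTA, −0.13 to 0.45 for ERL1 and −0.33 to 0.82 for ERL2. In *jmj13* they were −0.32 to 0.7 for EPF2, −0.42 to 0.07 for EPFL1 and −0.18 to 0.52 for EPFL2. In *ref6* they were −1.36 to 1.2 for EPF1, −0.4 to 0.76 for EPFL1, −0.92 to 0.17 for EPFL2, −0.72 to 0.6 for EPFL4, −0.23 to 0.7 for EPFL6, −0.74 to 0.42 for EPFL9 and −0.07 to 0.38 for ERL1. In *elf6* against *jmj13* they were −0.25 to 0.96 for EPF1, −0.63 to 0.4 for EPF2 and −0.07 to 0.06 for EPFL6.

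Of the other pathway genes, 0 were called in *elf6* against Col-0, but 2 with no filter, 2 with DESeq2's test, 0 to 2 with 1 library left out and 3 without both libraries that stand apart. In *jmj13* against Col-0, 0 to 2 were called with 1 library left out. In *elf6* against *jmj13*, where 1 was called, the number was 0 with library size only, 2 with no filter, 2 with DESeq2's test, 4 with only the 4 libraries compared, 4 without both libraries that stand apart, 0 with each limma setting and 0 to 2 with 1 library left out. Calls over all tested genes moved as well. For *elf6* against *jmj13* they were 0.772% in the main fit, 0.16% with library size only and 3.65% without both libraries that stand apart. They also rose in *elf6* against Col-0 without those 2 libraries. Shares for the other settings are not given here. With the replicate number as a block, 2 other pathway genes were called in *elf6* against Col-0, and the block changed no call of a member. The numbers are shared by label only, and the correlation over genes of the log2 ratios of replicate 1 to replicate 2 was 0.088 for *elf6* and Col-0, 0.015 for *jmj13* and Col-0, 0.364 for *ref6* and Col-0, and 0.268 for *elf6* and *jmj13*.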

Other observations

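Genes of mature guard cells were scarce in these buds, although genes of the stomatal lineage were measured. The 5 guard cell markers summed to between 3.00 and 6.56 TPM per library, and the sum did not separate *jmj13*, at 4.70 and 5.18 TPM, from Col-0, at 4.02 and 5.27 TPM. In TPM 10861 of 19939 tested genes were above Col-0 without overlap in *jmj13*, and the sum was not taken after TMM scaling. KAT1, a guard cell potassium channel, had 12 to 108 counts, whereas HT1, a guard cell kinase, was at 0 in 5 of 8 libraries and reached at most 2 counts. The 7 tapetum markers summed to 547 and 454 TPM in *jmj13*, 665 and 835 TPM in *elf6*, 1100 and 776 TPM in Col-0, and 513 and 731 TPM in *ref6*, with DYT1 at 0 to 3 counts. These sums mostly follow 1 gene, A9, at 465 and 382 TPM in *jmj13* and 1018 and 698 TPM in Col-0. AMS was higher in TPM, at 16.35 and 17.29 TPM in *jmj13* against 11.41 and 15.43 TPM in Col-0. That order is not kept after TMM scaling, whose factors were 1.218 and 1.161 in *jmj13* and 0.739 and 1.012 in Col-0.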
